A study of Mus musculus with 50 samples.

Results

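The calcium/calmodulin-dependent kinase cascade was examined in mouse hippocampus through 10 genes: the kinase kinases Camkk1 and Camkk2, the CaMKI genes Camk1, Camk1d and Camk1g, the CaMKII subunits Camk2a, Camk2b, Camk2d and Camk2g, and Camk4. Every non-control Agilent probe whose symbol, found through its RefSeq accession or its description, was one of these names was taken. This gave 16 of the 41174 probes on the array, with 5 genes carried by 1 probe, 4 by 2 probes and 1, Camk2d, by 3 probes. All 10 genes were present on the array.

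Wild-type (WT) C57/BL6j male mice were compared with transgenic (TG) males of that background that overexpress δC-DCLK-short, a constitutively active kinase and splice variant of the doublecortin-like kinase gene Dclk1. RNA came from both hippocampi of animals kept in individual cages, 5 mice per group. The promoter of the transgene, the number of founder lines and the age of the animals are not given in the sources used here. Each of the 10 two-color Agilent arrays held 1 WT and 1 TG mouse, each mouse was on 2 arrays, and WT RNA carried Cy3 on arrays 1 to 5 and Cy5 on arrays 6 to 10 as labelled. In bulk tissue, fewer cells of a type and less RNA per cell cannot be told apart.

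In this pathway, Ca2+-loaded calmodulin activates the CaM kinase kinases, which in turn phosphorylate the activation loop of CaMKI and of CaMKIV. CaMKIV is largely nuclear and phosphorylates the transcription factor CREB, whereas CaMKI acts mostly in the cytoplasm on neurite growth and synapse formation. CaMKII needs no kinase kinase. Its large holoenzymes phosphorylate themselves and are very abundant at hippocampal excitatory synapses, where they are required for long-term potentiation. DCLK proteins carry a kinase domain related to those of the CaM kinases.

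The direction of every Agilent value depends on the array labels, which are in doubt. Per gene, the moderated t statistics of Agilent as labelled and of the one-color ABI arrays of the same groups correlated at -0.19 over 1860 shared genes and at -0.53 over the 200 of them with the smallest Agilent p values. The deviations of a mouse on its 2 arrays had a median correlation of 0.17 as labelled. It was 0.22 when the first 5 arrays were given the labels of the last 5 and the reverse, here called the exchange. All signs below are as labelled, and each of them is the opposite after the exchange. The sizes, p values and number of calls over the 10 arrays are the same either way. The 4 probes of Dclk1 had log2 ratios of -0.085 to -0.056 with false discovery rates (FDRs) of 0.49 to 0.73. A further probe without a symbol, A_52_P26991, whose description names this gene, had -0.13 ± 0.049 (SE, n = 10 arrays; limma FDR 0.18) and was negative on 9 arrays. None was called, and all 5 mean ratios were below 0 as labelled and above 0 after the exchange. The 5 probes read 1 gene in the same mice, so their shared sign is not 5 separate results. Whether any of them reads the transgene RNA was not tested. The median spot signal of an array was 109 to 169 in Cy3 and 77.9 to 165 in Cy5 (scanner units), and 80.1% to 88.4% of probes were well above background in both channels.

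Over the 10 arrays, which share mice, Camkk1 was the only one of the 10 kinase genes with a called probe. The call was lost with 1 value per mouse (FDR 0.14) and with median centring in place of loess (FDR 0.64). Camkk1 was 1.18-fold lower in TG mice as labelled. The study gives this gene the opposite direction. It reports Camkk1 as higher in TG mice on Agilent, at the same size, on its other array platforms and by quantitative RT-PCR. Of the platforms, only Agilent passed the study's FDR for it. Its closest relative Camkk2 and the 8 downstream kinases gave no probe past the FDR of 0.1. A log2 ratio here is the log2 of TG over WT signal after loess normalisation within an array, averaged over the 10 arrays and tested with limma over all 41174 probes. At this FDR, 1 of the 16 kinase probes (6.25%) was called, and 7.42% of all probes were called, 3.76% lower and 3.66% higher in TG mice. With the probes of a gene averaged, 1 of the 10 genes was called, again Camkk1 (FDR 0.0167), and 8.18% of the 34477 genes on the array were. At an unadjusted p below 0.05 stood 1 of the 16 kinase probes and 18.9% of all probes. The median log2 ratio of the 16 probes was 0.021 and the median of their absolute values was 0.048, compared with 0.0023 and 0.037 over all probes.

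**Figure D1:**
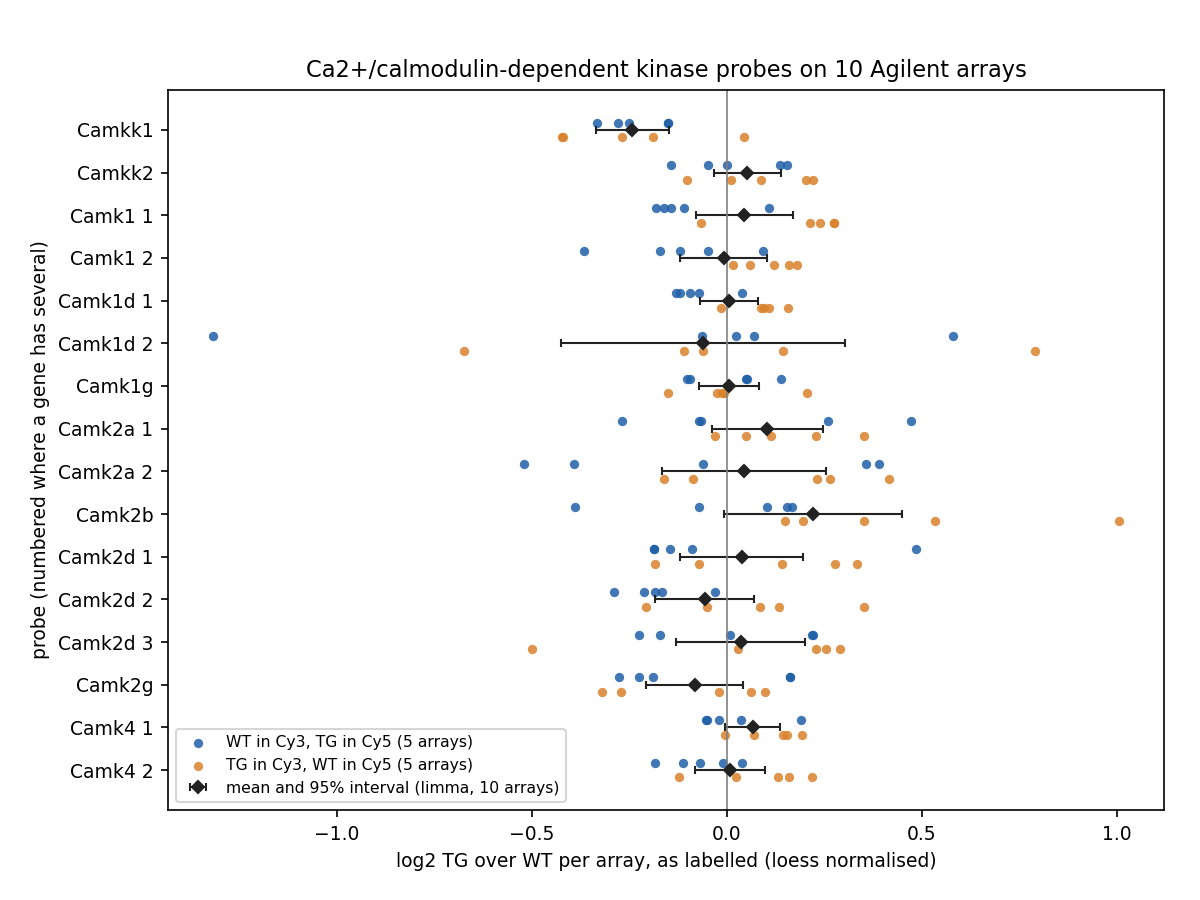
Log2 TG over WT ratios of the 16 kinase probes (rows) on each of the 10 Agilent arrays, as labelled, with points colored by dye orientation and diamonds with bars for the mean and its 95% interval (limma). The Camkk1 interval, -0.34 to -0.15, lies wholly below 0, and the other 15 intervals include 0. The intervals treat the arrays, which share mice, as independent.

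Camkk1 encodes CaM kinase kinase alpha, an upstream activator of CaMKI and CaMKIV. Its probe, A_51_P208330, was placed by the array files at chr11:72767607-72767666 on the plus strand, in a genome build that the files do not name. It was well above background and unsaturated in both channels of all 10 arrays. On arrays 1 to 5 the WT signal was 1893, 1458, 1376, 1310 and 1728, and the TG signal was 1367, 883, 1166, 1140 and 2821. On arrays 6 to 10 the WT signal was 1549, 1277, 1594, 1507 and 1521, and the TG signal was 1501, 2214, 1221, 1703 and 1548. Before normalisation, TG was thus below WT on 6 arrays and above it on 4.

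After loess normalisation the Camkk1 log2 ratio was -0.15, -0.25, -0.28, -0.15 and -0.33 on arrays 1 to 5. It was -0.19, -0.42, -0.27, -0.42 and 0.04 on arrays 6 to 10. The ratio was therefore negative on 9 arrays, and array 10, which held the mice labelled WT6 and TG5, was the exception. None of the 16 kinase probes had the same sign on all 10 arrays, and 2.11% of all probes did. The mean was -0.24 ± 0.042 (SE, n = 10 arrays), with a limma FDR of 0.0196 and rank 245 by p value among the 41174 probes. The 2 dye orientations gave nearly the same mean, -0.23 with WT in Cy3 and -0.25 with TG in Cy3. Without the loess step, with each array centred on its median alone, the ratio was -0.13 (FDR 0.64) and the call was lost.

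Because each mouse was on 2 arrays, the arrays are not independent animals. With both channels of a mouse averaged, the log2 level of Camkk1 was 10.65, 10.79, 10.69, 10.62 and 10.58 in the mice labelled WT1, WT3, WT4, WT5 and WT6. It was 10.40, 10.42, 10.42, 10.40 and 10.48 in TG1 to TG5. Every WT mouse was above every TG mouse. The difference was -0.24 ± 0.044 (SE, n = 5 mice per group) with an exact two-sided permutation p of 0.00794, the smallest that the 252 splits of 10 mice allow. That p restates the lack of overlap. Neither the permutation nor the limma fit by mouse uses which mice shared an array. Over all probes the limma FDR of the difference between mice was 0.14, so Camkk1 was not called, and 24 probes in all (0.0583%) were. At an unadjusted p below 0.05 stood 1 kinase probe, Camkk1, and 8.04% of all probes.

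After the exchange of arrays, the Camkk1 levels were 10.40 to 10.45 in the WT mice and 10.48 to 10.80 in the TG mice, again without overlap. The difference was then 0.24 ± 0.057 (limma FDR 0.35, exact permutation p 0.00794). In that comparison no kinase probe and 0.0267% of all probes were called, and 1 kinase probe and 7.31% of all probes had an unadjusted p below 0.05. Under either assignment Camkk1 was the 1 probe of the 16 whose mice did not overlap. Over all probes, 2.08% had no overlap as labelled and 1.57% after the exchange. The call over arrays held without any single array (FDR 0.0101 to 0.0541) and without both arrays of any mouse except 2: the FDR was 0.105 without WT3 and 0.12 without WT4.

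**Figure D2:**
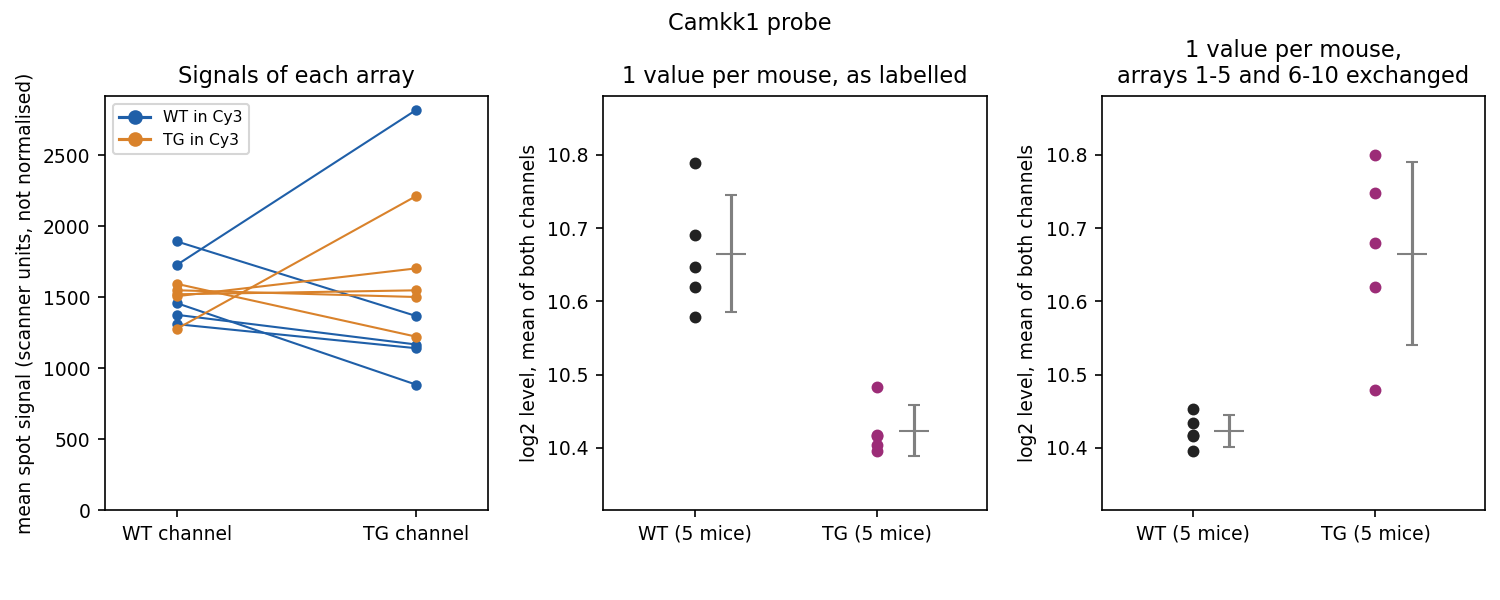
Camkk1 probe signals of both channels on each array (left, scanner units before normalisation, lines join an array) and log2 levels with 1 value per mouse, as labelled (middle) and after the exchange of arrays (right), with the group mean and SD beside the points. The 5 WT and 5 TG mice do not overlap in either assignment, with WT above TG as labelled and below it after the exchange.

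Camkk2 encodes CaM kinase kinase beta, which also activates the AMP-activated kinase. Its probe, A_51_P246411 (chr5:121886256-121886315, minus strand), gave WT signals of 432 to 900 and TG signals of 402 to 1429. Its log2 ratio was between -0.14 and 0.22 on single arrays and positive on 7 of 10. The mean was 0.052 ± 0.039 (SE, n = 10 arrays; limma FDR 0.55), with a 95% interval of -0.034 to 0.14. Averaged per mouse, the WT level was 9.31 ± 0.12 (SD, 5 mice) and the TG level 9.36 ± 0.083 (SD, 5 mice), and the groups overlapped.

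Of the CaMKI genes, Camk1 encodes the widely expressed alpha form. Its probes, A_51_P106259 and A_51_P106263, lie close together on the minus strand (chr6:113904209-113904268 and chr6:113905049-113905108). Their log2 ratios followed each other over the 10 arrays (Pearson r = 0.86, as a description of arrays that share mice and dyes), with means of 0.044 ± 0.057 (FDR 0.78) and -0.0079 ± 0.051 (FDR 0.97). Both were negative on average with WT in Cy3, at -0.098 and -0.12, and positive with TG in Cy3, at 0.19 and 0.11. The mean sign of both Camk1 probes thus turned with the dye orientation.

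Camk1d, the delta form, had 1 probe near background and 1 that varied widely. A_52_P131353 (chr2:5218854-5220590, minus strand) was well above background on 1 of 10 arrays, and its log2 ratio was 0.0056 ± 0.034 (FDR 0.97). A_52_P384310 (chr2:5214371-5214430) was well above background on all 10 arrays, and its ratio was -1.32, -0.064, 0.070, 0.023 and 0.58 on arrays 1 to 5 and -0.061, 0.79, 0.14, -0.67 and -0.11 on arrays 6 to 10. Its lowest values were on arrays 1 and 9, which share the mouse labelled TG4.

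With 1 value per mouse, the log2 level of A_52_P384310 was 7.33, 7.25, 7.51, 7.53 and 7.37 in WT1, WT3, WT4, WT5 and WT6. It was 7.62, 7.68, 7.61, 6.42 and 7.34 in TG1 to TG5. The mouse on arrays 1 and 9 was the lowest of all 10 under both assignments of the arrays, being called TG4 in one and WT5 in the other. The mean ratio over arrays was -0.062 ± 0.17 (FDR 0.91), and its 95% interval, -0.43 to 0.30, was the widest of the 16 probes. Camk1g, the lipid-anchored gamma form of neurons, had a ratio of 0.0050 ± 0.035 (FDR 0.97) at A_51_P308898 (chr1:193085288-193085347, minus strand), between -0.15 and 0.20 on single arrays.

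Camk2b had the second largest difference among the 10 genes. It encodes the beta subunit of CaMKII, which binds actin filaments. Its ratio at A_51_P318933 (chr11:5864620-5864679, minus strand) was 0.10, 0.15, 0.17, -0.39 and -0.071 on arrays 1 to 5 and 0.53, 0.15, 0.35, 1.00 and 0.19 on arrays 6 to 10. All 5 arrays with TG in Cy3 were positive, with a mean of 0.45, and the 5 with WT in Cy3 had both signs and a mean of -0.0068. The mean over 10 arrays was 0.22 ± 0.10 (SE; FDR 0.28), and its 95% interval reached from -0.0076 to 0.45. A probe without a symbol, A_51_P376776, described as a CaMKII beta M isoform, had -0.031 ± 0.029 (FDR 0.65) and was negative on 7 arrays. It was far dimmer, with median signals of 81 (WT) and 84 (TG) beside 2869 and 3987 at A_51_P318933.

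With 1 value per mouse, Camk2b was 11.76, 11.54, 11.64, 11.71 and 11.64 in the WT mice (WT1, WT3, WT4, WT5 and WT6) and 11.89, 11.76, 11.71, 12.27 and 11.77 in TG1 to TG5. The highest level was that of TG4, and the groups overlapped, since TG3 was below WT1 and WT5. The exact permutation p, not adjusted for the number of probes, was 0.032 as labelled and 0.11 after the exchange. The limma FDRs by mouse were 0.62 and 0.79, so Camk2b was not called under either assignment.

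Camk2a encodes the alpha subunit of CaMKII, the main isoform of excitatory forebrain neurons. Its probes, A_51_P343218 (chr18:61189270-61195326, plus strand) and A_52_P189707 (chr18:61213192-61213251), had ratios of 0.10 ± 0.065 (FDR 0.45) and 0.044 ± 0.095 (FDR 0.89). They did not move together over the arrays (r = -0.065) and had the same sign on 5 of 10. A_51_P343218 was dim, with median signals of 88 (WT) and 97 (TG), beside 4007 and 5323 at A_52_P189707. The 3 probes of Camk2d, a broadly expressed subunit, had ratios of 0.038 ± 0.072, -0.057 ± 0.058 and 0.035 ± 0.075, with FDRs of 0.69 to 0.88. They were A_51_P510817 (chr3:125717853-125721525, plus strand), A_52_P188261 (chr3:125726132-125726191) and A_52_P428745 (chr3:125728019-125728078). The pairwise r over arrays was 0.11, 0.50 and 0.36. A_52_P188261 was the dimmest of them, with median signals of 101 (WT) and 103 (TG), beside 415 and 479 at A_51_P510817 and 449 and 502 at A_52_P428745. Camk2g, another broadly expressed subunit, had a ratio of -0.082 ± 0.057 (FDR 0.50) at A_51_P132849 (chr14:19096296-19096355, minus strand).

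Camk4 encodes CaMKIV, the kinase of the cascade that phosphorylates CREB in the nucleus. Its probes lie close together on the plus strand (A_52_P672960 at chr18:33408027-33408086 and A_52_P94516 at chr18:33408751-33408810) and followed each other over arrays (r = 0.84, same sign on 9 of 10). Their ratios were 0.066 ± 0.032 (FDR 0.30) and 0.0076 ± 0.041 (FDR 0.96). The first had the narrowest interval over arrays of any kinase probe, from -0.0044 to 0.14.

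For the 15 probes that were not called, mean log2 ratios were from -0.082 to 0.22, 11 above and 4 below 0, and FDRs were from 0.28 to 0.97. In the fit over the 10 arrays, the 95% intervals of 13 of them lay within 0.3 of 0 on the log2 scale, a 1.23-fold difference. The intervals of Camk2b and of the Camk1d probe A_52_P384310 did not, so larger differences are compatible with their values. All these intervals treat the arrays, which share mice, as independent, so they set no limit on the difference between mice. With 1 value per mouse, the SE was 0.11 in place of 0.035 for Camk1g. For Camk1 A_51_P106259 it was 0.045 in place of 0.057. Another 5 probes that carried no gene symbol but were described as CaMKI delta, CaMKII beta or delta, or CaMKIV clones had ratios of -0.031 to 0.097, and none was called (lowest FDR 0.50).

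Dye differences were also present among the kinase probes. In a fit with a dye term, 4 of the 16 probes (25%) had a Cy5 over Cy3 difference past the FDR of 0.1, and 22.6% of all probes did. These were both Camk1 probes, the dim Camk1d probe and Camk2b. The mean log2 ratio was negative with WT in Cy3 and positive with TG in Cy3 for 9 probes, and for no probe the reverse. Camkk1 was not among them, with a Cy5 over Cy3 difference of 0.0093 ± 0.044 (FDR 0.91).

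**Figure D3:**
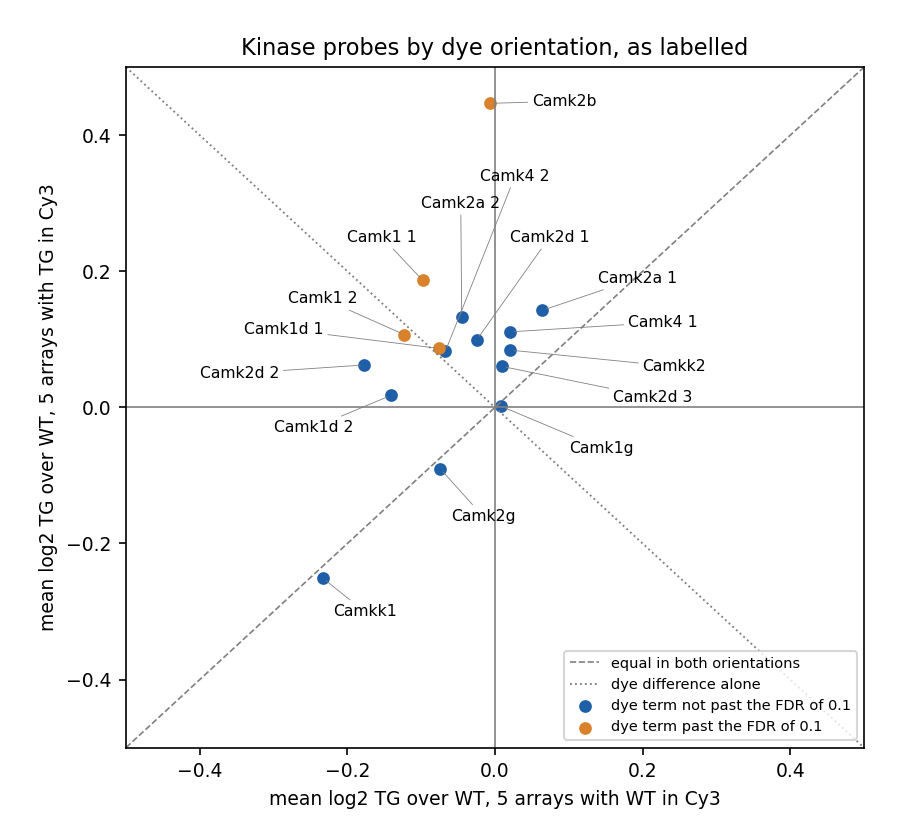
Mean log2 TG over WT of each kinase probe on the 5 arrays with WT in Cy3 (horizontal) and the 5 arrays with TG in Cy3 (vertical), as labelled. Camkk1 lies near the dashed line of equal values (-0.23 and -0.25), and both Camk1 probes and Camk2b, colored for a dye term past the FDR, lie away from it.

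Over the 10 arrays the member genes did not share 1 pattern. Among their 45 pairs the Pearson r of the log2 ratios was from -0.50 (Camk1d and Camk2d) to 0.77 (Camkk1 and Camk2g), with a median of 0.055 and 26 pairs above 0. These points share mice and dye orientation, so they describe the arrays. The 5 genes whose ratios were most like those of Camkk1, among 16835 named genes, were Wfs1 (r = 0.93), Cd34 (0.91), Vmn1r208 (0.89), Mfge8 (0.89) and Myom2 (0.88). Of these, Cd34, an adhesion molecule of blood vessels and progenitor cells, was itself lower in TG mice as labelled (-0.40 ± 0.047, gene-level FDR 0.0035), and Mfge8, a secreted phagocytosis factor, had -0.14 ± 0.044 (FDR 0.091). Wfs1, a marker of CA1 pyramidal neurons, had a mean ratio of 0.067 ± 0.074 (FDR 0.74). At the other end, r was -0.86 for Cyp4a31. The 5 genes were picked as the highest of 16835, and how high r reaches by chance there was not tested.

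The other genes of the pathway were grouped into 7 lists with 47 measured genes and 78 probes. Of these probes 5 (6.41%) were called, 3 higher and 2 lower in TG mice as labelled, beside 7.42% of all probes. The median log2 ratio of the 78 probes was 0.019. No probe was called among the kinase relatives, inhibitors and phosphatases (6 probes), the AMP-activated kinase subunits (7), the CREB, MEF2 and class IIa HDAC targets (20) or the other calmodulin-dependent enzymes (16). At an unadjusted p below 0.05 these 4 lists held 1, 1, 3 and 1 probes, compared with 18.9% of all probes. Creb1, the best known CaMKIV target, had ratios of 0.0078 to 0.039 at its 3 probes, with FDRs of 0.84 to 0.96.

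Among calmodulin and the small proteins that bind it, 2 of 11 probes were called, and both were higher in TG mice as labelled. The log2 ratios of the list were from -1.0 to 0.60, and the probes not called had both signs. Pcp4, a calmodulin regulator enriched in some hippocampal neurons, had a ratio of 0.60 ± 0.13 (SE, n = 10 arrays; FDR 0.040) and was positive on 9 arrays. Nrgn, which encodes neurogranin, a postsynaptic store of calmodulin, had 0.50 ± 0.14 (FDR 0.078) and was positive on 8. The mice of both groups overlapped for each gene. Without both arrays of a mouse, Pcp4 stayed past the FDR in 4 of 10 fits (without TG1, TG4, WT1 or WT6) and Nrgn in 1 (without WT6). Nrgn was 0.81 (FDR 0.040) without spots that the scanner software marked as outliers.

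Of calcineurin, the phosphatase that opposes many CaMKII substrates, 2 of 13 probes were called, both of Ppp3r1, the regulatory subunit. They had ratios of -0.94 ± 0.26 (FDR 0.076) and -0.81 ± 0.23 (FDR 0.077), each negative on 9 arrays. The mouse labelled TG4 had log2 levels of 6.73 and 6.69 at these probes, while the other TG mice had 8.34 to 9.19 and 8.11 to 8.94, and the WT mice 8.92 to 9.85 and 8.57 to 9.44. Without TG4 the ratios were -0.60 (FDR 0.16) and -0.51 (FDR 0.16). Both probes stayed past the FDR in 2 of 10 fits, without TG3 or WT4.

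Among synaptic partners of CaMKII, 1 of 5 probes was called. Syn1, which encodes the vesicle protein synapsin I, had 0.30 ± 0.085 (FDR 0.075) at that probe and -0.10 ± 0.11 (FDR 0.73) at its second probe. Without both arrays of a mouse, the call was kept in 2 of 10 fits, without TG4 or WT6.

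**Figure D4:**
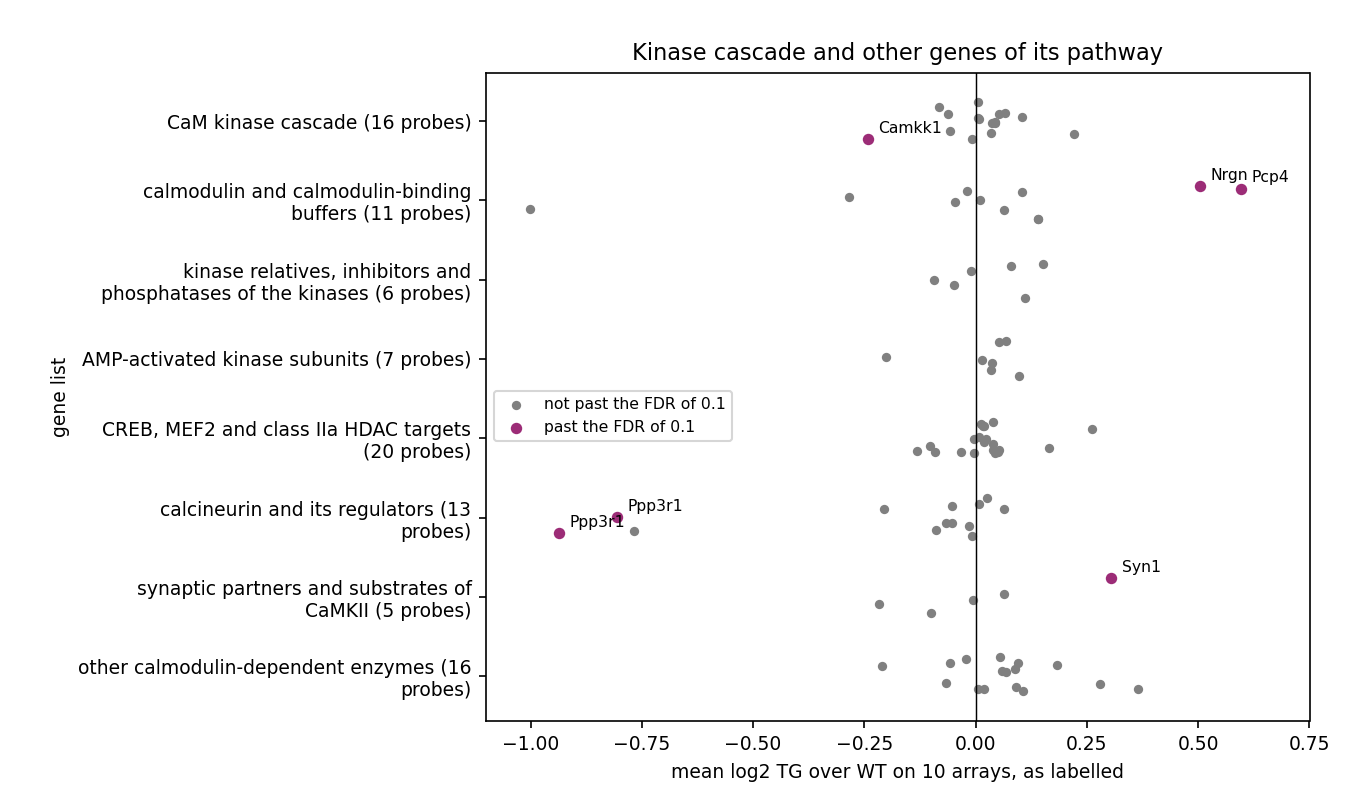
Mean log2 TG over WT on 10 arrays, as labelled, for each probe of the kinase cascade and of 7 lists of other pathway genes (rows), with called probes colored and named. The 6 called probes belong to Camkk1, Nrgn, Pcp4, Ppp3r1 (2 probes) and Syn1, and no probe of 4 of the lists was called.

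Cell type markers were set beside these results, with 3.66% of all probes called higher and 3.76% called lower in TG mice as labelled. The hippocampal neuron list (Prox1, Dsp, C1ql2, Neurod6, Wfs1, Snap25 and Slc17a7) had 1 of 12 probes called: C1ql2, a marker of dentate granule cells, was lower in TG mice as labelled (-0.30 ± 0.050, FDR 0.0167). The mean log2 level of the whole list per mouse was 9.40 to 9.50 in WT and 8.89 to 9.42 in TG mice. The lower end of a range is 1 mouse: the group mean was 9.44 (SD 0.039) in WT and 9.28 (SD 0.22) in TG mice. Single arrays weighed on it, since Snap25 probe A_52_P165961, not called, had a mean ratio of -0.90, a median of -0.29 and a lowest of -3.88. Of 8 astrocyte probes, 3 were higher, for Aqp4 (2 probes) and Aldh1l1, and the list mean was 8.31 to 8.37 in WT and 8.46 to 8.60 in TG mice. Of 5 endothelial probes, 2 were lower, for Cldn5 and Slco1a4 (list mean 7.94 to 8.07 and 7.66 to 7.96). Of 10 oligodendrocyte probes 2 were lower, among them Mbp (list mean 10.39 to 10.75 and 9.48 to 10.52). The oligodendrocyte list mean had an SD of 0.13 in WT and 0.43 in TG mice.

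Over all probes 7.42% were called in either direction. Of 9 microglial probes 1 was higher, for Aif1 (7.72 to 7.97 and 7.82 to 7.94), and of 8 thalamic probes 1, for Slc17a6 (7.05 to 7.13 and 6.94 to 7.19). No probe was called among the interneuron (6), choroid plexus (6), striatal (5) and blood (2) markers, whose list means overlapped between WT and TG mice. The part of these cell types in the Camkk1 value was not tested.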

How the data were processed

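The 10 Agilent text files hold the deposited spot intensity of both dyes and the scanner software's log10 ratio, per the file headers from Feature Extraction 8.5.1.1. The ABI table holds the authors' raw signal intensity and served only to check the labels; 0 of its probes could be named as a member or pathway gene. Illumina values (80 columns, which carry chip positions in place of mouse names) were not used. Other platforms are not analysed here. Following the study's two-color model, mean signals of 41534 spots were loess normalised within arrays (limma 3.58.1, R 4.3.3) without background correction or filter, spots of a probe were averaged, and log2 ratios of TG over WT were fitted with an intercept. Benjamini-Hochberg FDRs of 0.1 or less over all probes were called. For 1 value per mouse, channels were scaled with Aquantile. Symbols were found for 23533 probes. Single results of 2 lists are not reported here. Scripts were tested on simulated data. The genes, lists and tests were chosen with earlier results of these data known. Named were all member probes, called pathway probes (up to 3 per list) and the 5 genes most correlated with Camkk1. All arrays were scanned on 1 day on 10 slides. Their 2 series of slide numbers coincide with dye orientation and cannot be told apart from it. The number of arrays limits the precision.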

Additional observations from a re-analysis of the deposited data

Results flagged for a closer look

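Of 64 groups of 5 values (the 16 kinase probes by dye orientation, and by genotype with 1 value per mouse), 5 held a value far from the other 4 by Dixon's test at the 95% level, and chance flags about 1 in 20. At Camk1 probe A_51_P106259, array 1 had a log2 ratio of 0.11 while the other arrays with WT in Cy3 had -0.18 to -0.11, and array 7 had -0.066 while the others with TG in Cy3 had 0.21 to 0.28. At Camk2d probe A_51_P510817, array 1 had 0.49 and the other arrays of its orientation -0.19 to -0.090. For Camkk1, mouse TG5 had a log2 level of 10.48 and the other TG mice 10.40 to 10.42. For Camk1d probe A_52_P384310, mouse TG4 had 6.42 and the other TG mice 7.34 to 7.68. The causes were not tested.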

How the results depend on the processing

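The Camkk1 call was kept with normexp background correction, median pixel signals, the scanner log ratio, scale normalisation, both filters, the dye term, single-channel intensities, robust regression and an FDR of 0.05. The number of called kinase probes, 1 as reported, was 0 with median centring in place of loess, 0 with TG in Cy3 only, 2 with WT in Cy3 only (Camkk1 and Camk2d probe A_52_P188261), 0 with 1 value per mouse as labelled and 0 after the exchange, and 0 to 1 without 1 array or mouse. Over all probes, 3055 calls became 1335 with median centring, 24 and 11 with 1 value per mouse as labelled and exchanged, 1205 at an FDR of 0.05, and 282 to 3398 without 1 array or mouse. The 5 pathway calls became 2 with the scanner log ratio, 3 with WT in Cy3 only, 0 with 1 value per mouse under either assignment, 1 at an FDR of 0.05, and 0 to 5 without 1 array or mouse. By mouse, no kinase probe was called, and 0 were without any 1 mouse. With 1 mean log ratio per WT mouse, or per TG mouse, 1 was called, and 1774 and 2643 of all probes were. In these 2 fits each mouse of the other genotype is still in 2 of the 5 values. They are therefore not tests on independent mice.

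Each mouse was on 2 arrays, so the WT or TG mouse number was also used as a replicate block. The estimated correlation was -0.25 for WT and -0.14 for TG mice. Blocked by WT mouse, 1 kinase probe, 8 pathway probes and 5970 of all probes were called, and blocked by TG mouse 1, 6 and 4527. The block changed no kinase call. Both correlations were below 0, and the calls over all probes rose from 3055. The block thus made the fit less strict and cannot show what the shared mice do to a call.

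Apart from the exchange, which turned every sign, no alternative turned Camkk1, and the signs that turned were those of probes not called. After the exchange, with 1 value per mouse, every kinase probe turned: Camkk1 0.24, Camkk2 -0.052, Camk1 A_51_P106259 -0.044, Camk1 A_51_P106263 0.0079, Camk1d A_52_P131353 -0.0056, Camk1d A_52_P384310 0.062, Camk1g -0.0050, Camk2a A_51_P343218 -0.10, Camk2a A_52_P189707 -0.044, Camk2b -0.22, Camk2d A_51_P510817 -0.038, Camk2d A_52_P188261 0.057, Camk2d A_52_P428745 -0.035, Camk2g 0.082, Camk4 A_52_P672960 -0.066 and Camk4 A_52_P94516 -0.0076. With TG in Cy3 only, the reversed values were Camk1 A_51_P106263 0.11, Camk1d A_52_P384310 0.018 and Camk2d A_52_P188261 0.062. With WT in Cy3 only, the reversed values were Camk1 A_51_P106259 -0.098, Camk1d A_52_P131353 -0.075, Camk2a A_52_P189707 -0.045, Camk2b -0.0068, Camk2d A_51_P510817 -0.025 and Camk4 A_52_P94516 -0.067. With median centring, the reversed values were Camk1 A_51_P106263 0.042, Camk1d A_52_P131353 -0.075 and Camk2g 0.038. With median pixel signals, the reversed values were Camk1 A_51_P106263 0.0019 and Camk1g -0.0032. With robust regression, the reversed values were Camk1 A_51_P106263 0.0051, Camk1d A_52_P384310 0.00023 and Camk1g -0.00043. Without 1 array or mouse, the ranges that crossed 0 were Camk1 A_51_P106263 -0.041 to 0.034, Camk1d A_52_P131353 -0.011 to 0.021, Camk1d A_52_P384310 -0.18 to 0.17, Camk1g -0.025 to 0.038, Camk2a A_52_P189707 -0.046 to 0.12, Camk2d A_51_P510817 -0.048 to 0.093, Camk2d A_52_P428745 -0.012 to 0.13 and Camk4 A_52_P94516 -0.017 to 0.039. Causes were not tested. Leaving out spots marked as outliers was chosen after seeing the data. The ABI results and the scan or slide block were not run, since no ABI probe carried the name of a kinase or pathway gene and no slide held 2 arrays.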
